A study of Mus musculus with 2 samples.

Results

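Prrc2a RIP-seq of mouse brain gave 8372 shared peaks, and 253 of them lay in exons of genes that do not code for protein. These members were selected on a measured overlap. A member is a replicate 1 peak that overlaps a replicate 2 peak by at least 1 bp. Its midpoint lies in an exon of a gene whose type in GENCODE M21 is not protein-coding, and not in a coding sequence or UTR of a protein-coding transcript. The members made up 3.02% of the shared peaks and touched 181 genes. In RIP-seq, a protein is immunoprecipitated, here Prrc2a, and the RNA that stays with it is sequenced. Both samples were Prrc2a immunoprecipitates from whole brain of wild type C57BL/6J male mice at 4 weeks of age, without transgene or treatment. They are 2 replicates of 1 condition. The protocol describes several brains and does not say how they were divided between the replicates. No Prrc2a-deficient sample was analysed here, and the library used as the control of the fold enrichment is not stated for this peak call.

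Prrc2a (proline rich coiled-coil 2A) is an RNA-binding protein described as a reader of m6A, the methylated adenosine that methyltransferases deposit mainly at a GGAC-like sequence. Long non-coding RNAs (lncRNAs) are transcripts that act as RNA, in the nucleus or the cytoplasm, or whose transcription itself matters. Pseudogenes are copies or relics of coding genes, some of them transcribed. Small nucleolar and small Cajal body RNAs (snoRNAs, scaRNAs) guide chemical modification of other RNAs and are mostly released from introns. TEC is the annotators' label for transcribed loci that still await experimental proof.

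The following stretches are shown because they are the base sequence under the replicate 1 peaks of members that the results describe. Each is the 30-base window around the GGAC nearest to the peak midpoint in the member with the highest mean fold enrichment of that gene, read from GRCm38 on the strand of the gene. Capitals mark GGAC.
Tug1, chr11:3648570-3648599, minus strand: tcggggcctgctaGGACccagttggagggt
Gm9866, chr12:27134956-27134985, minus strand: tctcattcaatctGGACtttgttgatttgt
Snhg14, chr7:59975056-59975085, minus strand: tgtaaggcttattGGACacacaaaactatt
9330102E08Rik, chr6:128183107-128183136, minus strand: cgtcttcctccgtGGACtaggagagcctca
Gm5113, chr7:30170094-30170123, plus strand: ctgatgtggctatGGACtacgtttcccaga
Gm9899, chr5:30576135-30576164, minus strand: acagctgggggaaGGACagaaagggacact
Pantr1, chr1:42591556-42591585, minus strand: caactccacaggaGGACctcatagttggta
2900097C17Rik, chr2:156392823-156392852, minus strand: gtccctactctgcGGACgccaggagccctc
9430085M18Rik, chr5:101703995-101704024, plus strand: gatgacgctgcaaGGACccgtctgtgacga
Scarna13, chr12:105031081-105031110, minus strand: agcggtttctgttGGACactaagtactgcc
Rmrp, chr4:43492965-43492994, minus strand: ggggaaagtccccGGACcacgggcagagag

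Some members also cover the hairpin of a microRNA, a short RNA that directs silencing of messages through its seed. The mature forms below are all those that lie within the replicate 1 peak of a member on the strand of the member's gene and come from RefSeq on GRCm38.p6, with the seed (bases 2 to 8) in capitals. The seeds of these 5 differ from each other. The paired replicate 2 peak holds none of miR-5103 and none of miR-9-3p, and all of the other 3.
miR-9-5p, from Mir9-2 in C130071C03Rik, chr13:83738821-83738843, plus strand: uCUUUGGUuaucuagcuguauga
miR-9-3p, from Mir9-2 in C130071C03Rik, chr13:83738858-83738879, plus strand: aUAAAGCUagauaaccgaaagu
miR-5103, from Mir5103 in Gm37233, chr1:34433130-34433149, minus strand: uCAUCCGGgauccccugagg
miR-3069-5p, from Mir3069 in the Scarna13 peak, chr12:105031117-105031140, minus strand: uUGGCAGUcaagauauuguuuagc
miR-3069-3p, from Mir3069 in the Scarna13 peak, chr12:105031078-105031099, minus strand: uUGGACACuaaguacugccaca

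The lists hold 18129 peaks for replicate 1 and 18671 for replicate 2, each with a position and a fold enrichment, which is the signal of the precipitate divided by that of the control on a linear scale. They hold no read counts, strand or error, so the depth behind a peak is unknown. With 2 samples of 1 condition and members picked by their overlap, no test was run, and every comparison below is a description. A peak needs both RNA in the sample and enrichment, so a gene without a peak may be weakly transcribed, weakly bound or covered by too few reads. The authors kept only uniquely mapped reads, so reads that fit several copies of a gene are also absent. In bulk tissue, fewer cells of a type and less RNA per cell cannot be told apart. The lists carry no expression level, so the tissue label was not checked against marker genes.

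Of all replicate 1 peaks, 46.2% overlapped a replicate 2 peak. In non-coding exons, 654 replicate 1 peaks were listed and 253 of them were shared, which is 38.7%. The same share was 61.2% in coding sequence and 63.2% in 3′ UTRs. Counted from replicate 2, 289 of 461 peaks in non-coding exons were shared, or 62.7%, against 47.7% in coding sequence. The order of the regions therefore changed with the replicate that was counted. The rule turns on an overlap of 1 bp, and the members closest to it were a Snhg14 peak that shared 41 bp (fold enrichment 1.62 and 1.71 in replicates 1 and 2) and a 5330413P13Rik peak that shared 48 bp (4.97 and 5.52). Just outside it, a Gm49797 peak lay 21 bp from the nearest replicate 2 peak (3.02 in replicate 1, 4.06 for that neighbour) and a Gm49064 peak 22 bp from it (3.85 and 4.87). Of the 401 replicate 1 peaks in non-coding exons that were not shared, 107 had a replicate 2 peak within 1000 bp.

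Most members lay in lncRNA genes. These held 194 of 253 (76.7%), with 87 in lincRNA genes, 11 of them within the span of a coding gene, 43 in antisense genes and 40 in the type called processed transcript. Another 13 were in bidirectional promoter lncRNAs, 7 in sense intronic and 4 in sense overlapping genes. Pseudogenes held 31 members, TEC loci 20 and small RNA genes 7 (3 annotated as snoRNA, 2 as snRNA and 2 as scaRNA). The single remaining member lay in Ighg2c, an immunoglobulin constant region gene that does encode protein but has a gene type of its own.

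**Figure D1:**
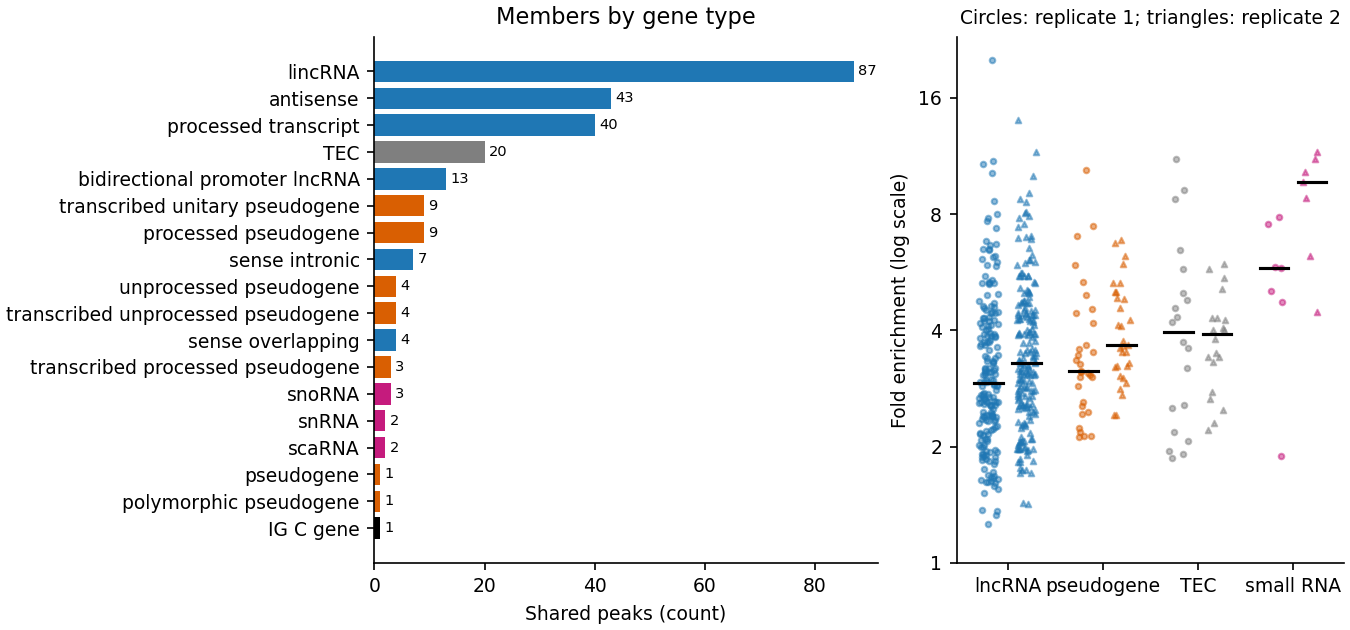
Left, number of members by gene type, coloured by class. Right, fold enrichment (log scale) of each member in replicate 1 (circles) and replicate 2 (triangles) for lncRNA, pseudogene, TEC and small RNA genes, with the median as a bar. The 7 small RNA members have medians of 5.81 and 9.67, above those of the 194 lncRNA members (2.92 and 3.29). Rmrp, also annotated as a ribozyme, is among the lncRNA members.

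The genes with a member were a small part of the annotation and were long. Of 33499 non-coding genes, 181 (0.54%) had one, and among the lncRNA types 131 of 10155 (1.29%) did. The share was 3.04% for processed transcripts (24 of 790) and 0.0905% for processed pseudogenes (9 of 9940). The median exonic length of lncRNA genes with a member was 3313 bp, against 1058 bp over all lncRNA genes. A longer gene offers more bases for a midpoint, and the part of length in these shares was not tested. In 136 genes there was a single member, in 28 genes 2, and in 17 genes 3 or more. Exons of 2 genes met at the midpoint of 12 members.

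The members' median fold enrichment lay above that of peaks in messages. It was 3.07 in replicate 1 (quartiles 2.33 and 4.34) and 3.49 in replicate 2 (2.70 and 4.71). Coding sequence peaks had medians of 2.34 and 2.83, and 3′ UTR peaks of 2.04 and 2.68. Intron peaks (3.28 and 3.55) and intergenic peaks (2.94 and 3.71) were close to the members, and the members' interquartile ranges overlapped those of every other region. Values of 4 or more in replicate 1 and in replicate 2 were reached by 8.62% of all shared peaks and by 57 members (22.5%), against 7.01% of coding sequence, 19.2% of intron and 22.8% of intergenic peaks. Replicate 2 had the higher value in 70.4% of all shared peaks and in 165 members (65.2%). The replicates differed by more than 2-fold in 31 members (12.3%, beside 8.17% of all shared peaks), 21 of them higher in replicate 2 and 10 higher in replicate 1. Across the 253 members the Spearman correlation of the replicates was 0.59, beside 0.58 over all shared peaks. The members are not independent, since several lie in 1 gene and all share the same 2 libraries.

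**Figure D2:**
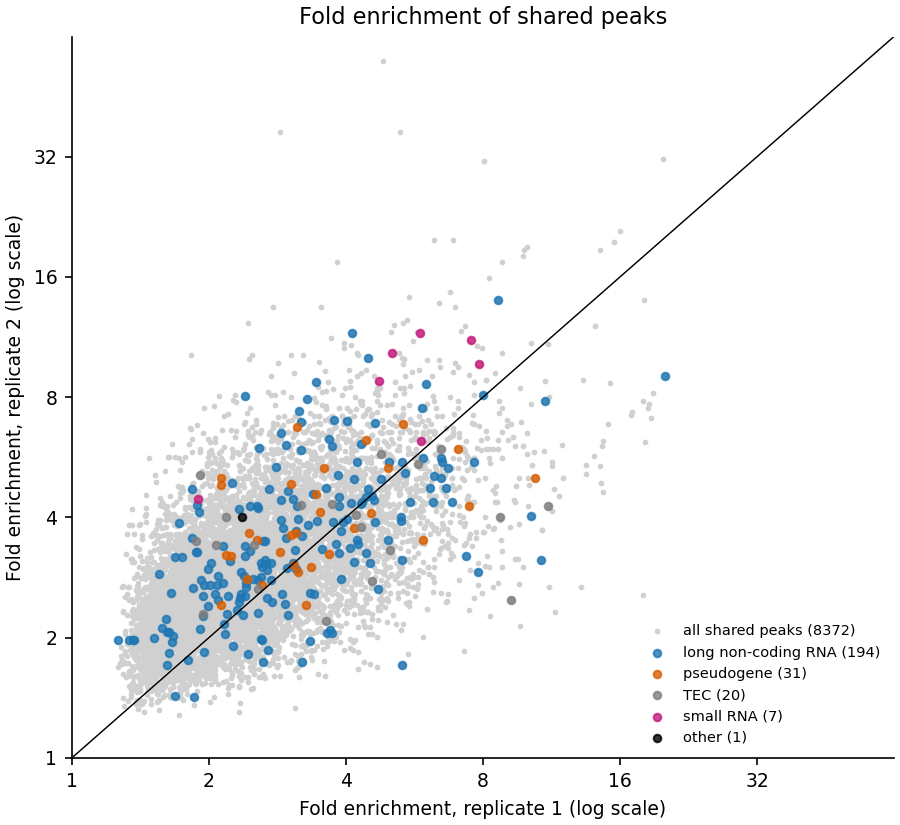
Fold enrichment in replicate 1 (x) and replicate 2 (y) of the 8372 shared peaks (grey) and of the 253 members coloured by class, both axes on a log scale, with the line of equal values. The members spread from 1.26 to 20.0 in replicate 1 and from 1.42 to 14.04 in replicate 2, within the cloud of the other shared peaks.

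Tug1, a lncRNA known for roles in retina and neural tissue and for binding chromatin regulators, was among the 3 genes with the most members, at 6. From the 5′ end of the transcript, their fold enrichment in replicate 1 was 1.72, 1.94, 1.55, 1.68, 1.75 and 1.66. The paired replicate 2 values were 3.88, 2.54, 2.88, 3.18, 3.18 and 1.95, where the value of 3.18 is 1 long replicate 2 peak met by 2 members. All 6 members were higher in replicate 2, and all 6 replicate 1 values were below the members' median of 3.07. Peaks covered 51.9% of its 9734 exonic bases in replicate 1 and 59.6% in replicate 2, and 49.8% were within a peak in each of the replicates. In replicate 2, 1 of the 6 values was above the members' median of 3.49.

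Gm9866, a lincRNA without a described function, also had 6 members. Its fold enrichment in replicate 1 was 2.74, 2.56, 2.35, 3.85, 3.81 and 4.03 from the 5′ end, and 2.46, 4.22, 2.92, 4.50, 3.42 and 6.96 in replicate 2. Neither replicate was higher throughout. Bases within a peak in each of the replicates made up 38.4% of its 12327 exonic bases.

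Snhg14 is the long imprinted host transcript of snoRNA clusters in the Prader-Willi and Angelman region, and its far end runs antisense to Ube3a. Its 6 members had replicate 1 values of 1.84, 4.47, 1.63, 2.60, 1.62 and 3.40 from the 5′ end and replicate 2 values of 4.71, 4.71, 2.07, 2.84, 1.71 and 2.57. The value of 4.71 is again 1 replicate 2 peak met by 2 members. The 6 midpoints lay between 0.452% and 43.4% of the merged exons, all in the part nearer to the 5′ end. Snhg14 had 15 replicate 1 peaks and 10 replicate 2 peaks in its exons, and 6.63% of the exonic bases were within a peak in each of the replicates.

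Trerf1 and the pseudogene Zfp862-ps had 5 members each. Trerf1 ranged from 1.91 to 3.14 in replicate 1 and from 1.82 to 3.95 in replicate 2. It encodes a transcriptional regulator, GENCODE M21 types it as a processed transcript, and in RefSeq 3 of its members lie in coding sequence and 2 in the rest of an mRNA. Its peaks thus count as non-coding by the annotation release alone. Zfp862-ps, a unitary pseudogene, ranged from 2.12 to 3.27 and from 2.42 to 4.82.

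Several lncRNAs carried 4 members. In 9330102E08Rik, the gene with the largest share of exonic bases in peaks of both replicates among the genes with at least 3 members (65.9%), the values were 3.06, 2.95, 2.89 and 2.36 in replicate 1 and 4.44, 3.55, 2.57 and 2.57 in replicate 2, with 2.57 again from 1 peak met by 2 members. Gm5113 (55.7% covered by both) had 3.31, 2.46, 1.90 and 3.06 against 3.83, 3.29, 4.13 and 3.08. All 4 of its members were higher in replicate 2. Sox1ot, which overlaps the neural transcription factor gene Sox1, ranged from 1.95 to 4.02 and from 2.70 to 4.28. Dubr, a lincRNA implicated in muscle differentiation, ranged from 2.40 to 3.91 and from 2.81 to 8.07. The member at 8.07 in replicate 2 was at 2.40 in replicate 1. Its replicate 1 peak holds the hairpin of Mir6363, annotated on the other strand, and the replicate 2 peak of 8.07 holds 17 of the 114 bases. F730043M19Rik ranged from 1.83 to 3.55 and from 2.74 to 3.56.

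Peg13, an imprinted lncRNA inside an intron of Trappc9 that is expressed from the paternal allele in brain, also had 4 members, and they had the lowest replicate 1 values of all members. Their replicate 1 values were 1.33, 1.26, 1.37 and 1.36 from the 5′ end. All 4 lay within a single replicate 2 peak of 1.97, so they count as 4 members against 1 peak. Replicate 2 peaks covered 87.1% of the Peg13 exon and replicate 1 peaks 28.3%.

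The remaining genes with at least 3 members were 1500004A13Rik (4), the pseudogenes 5830417I10Rik (4), 4930451G09Rik (4) and Nlrp5-ps (3), and the processed transcripts A730017L22Rik (3) and Gm9899 (3). 1500004A13Rik and 5830417I10Rik overlap on opposite strands and share members, and without strand their peaks cannot be told apart. Gm9899 had 2.09, 3.19 and 2.66 from the 5′ end in replicate 1 and 2.86, 5.90 and 3.49 in replicate 2, higher in replicate 2 throughout. A730017L22Rik went the other way, with 6.45, 4.51 and 4.70 against 5.63, 3.08 and 2.65. These 3 members lie within the span of the coding gene 4930402H24Rik on the same strand. The member at 6.45 and 5.63 also lies in the pseudogene Gm14048 on the other strand.

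**Figure D3:**
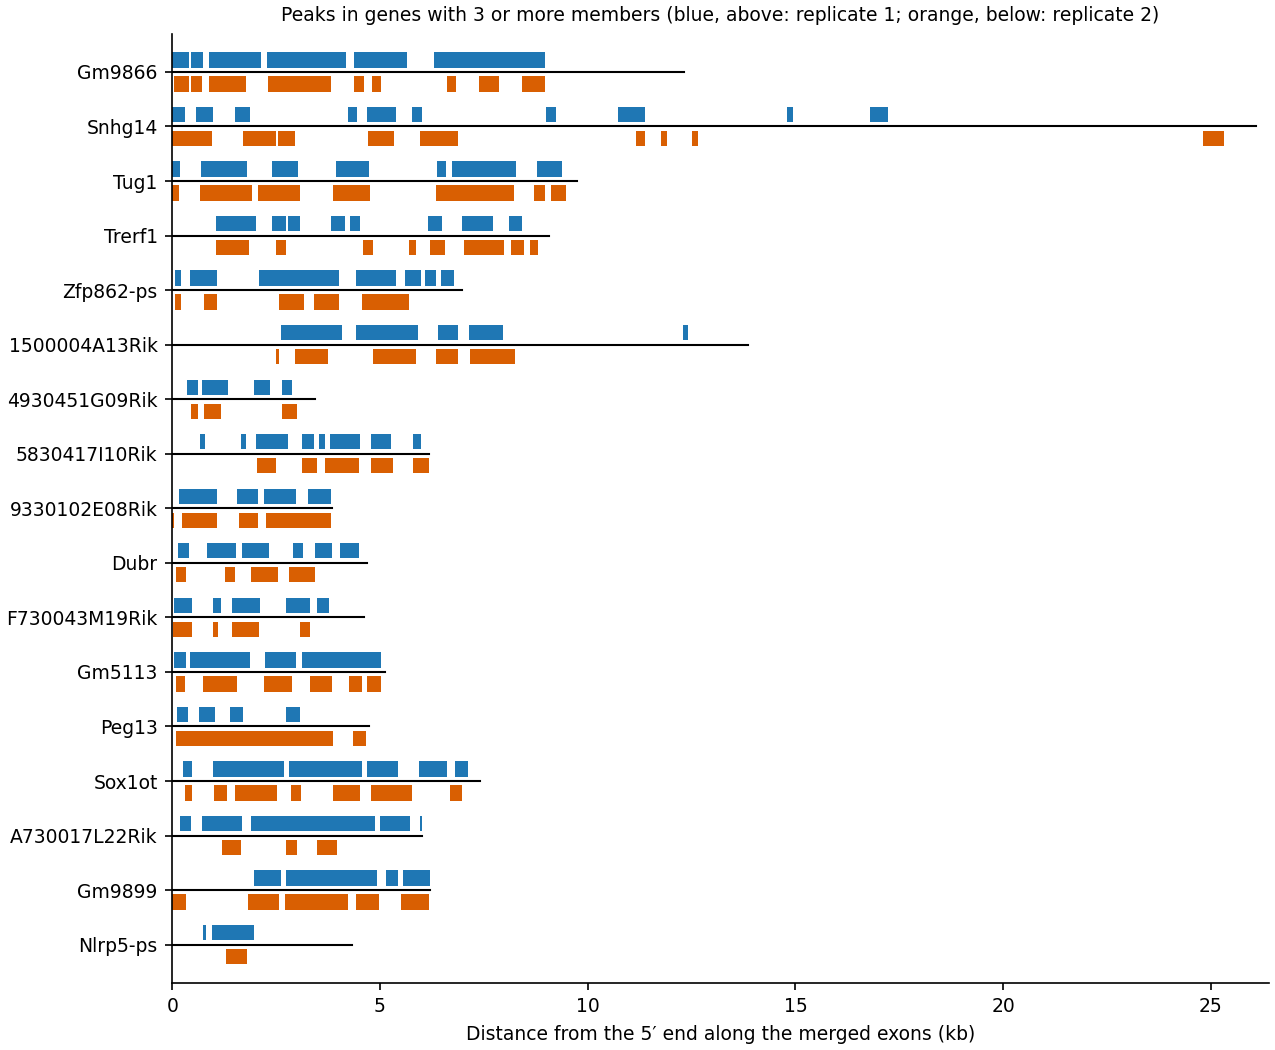
Peaks of replicate 1 (blue, above each line) and replicate 2 (orange, below) along the merged exons of the 17 genes with 3 or more members, as distance from the 5′ end in kb. The share of exonic bases within a peak in each of the replicates is largest in 9330102E08Rik (65.9%). Gm5113 (55.7%), Gm9899 (52.1%) and Tug1 (49.8%) follow. The single long replicate 2 peak over Peg13 stands against 4 short ones, and Snhg14 has few peaks for its 26093 exonic bases.

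Of the genes with 3 or more members, Nlrp5-ps was also among the 10 members with the largest mean fold enrichment. The highest of the 10 was a peak of 1573 bp in the antisense gene Gm20628, at 20.0 in replicate 1 and 9.05 in replicate 2. It also spans coding sequence of the histone genes Hist2h2bb (378 bp) and Hist2h3b (408 bp) on the other strand, which the lists cannot tell apart from Gm20628. The lincRNA 9430085M18Rik had 2 members, at 8.64 and 11.0 in replicate 1 and at 14.04 and 7.83 in replicate 2. Gm37233 (7.99 and 8.11) was nearly equal in both replicates. Gm27002 stood at 4.12 and 11.5, and in RefSeq its midpoint is in coding sequence of Osbpl10. The Nlrp5-ps member reached 10.4 and 5.02, and the member of the TEC locus Gm37593 11.1 and 4.26. The replicate 2 peak of 4.26 lies outside the Gm37593 exon. That exon holds a replicate 2 peak of 5.52 over 70 of its 3254 bases. The other 3 of the 10 were small RNA genes.

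Few members lay in small RNA genes. The medians of the 7 counted under them were 5.81 in replicate 1 and 9.67 in replicate 2, against 3.07 and 3.49 over all members. Of the 7, Gm25939 was below the median of all members in replicate 1. Rmrp, annotated both as a ribozyme and as a lincRNA, is counted under its lincRNA entry and was lower, at 1.86 and 1.42. Gm25395, a scaRNA in an intron of Atg16l1, was at 7.52 in replicate 1 and 11.1 in replicate 2. Scarna13 was at 7.85 and 9.67, and Scarna10, in an intron of Ncapd2, at 5.81 and 11.6. The snoRNA Gm24336 in Cwf19l1 stood at 4.74 and 8.78 and the snoRNA Gm25776 in Gtf2a1 at 5.83 and 6.22. The snRNA genes Gm25360 and Gm25939 stood at 5.05 and 10.3, and at 1.89 and 4.45. All 7 were higher in replicate 2, and 6 of 7 were at least 4 in both replicates. Their peaks had a median width of 245 bp, against 580 bp over all members. A member was held by 3 of 1507 snoRNA genes (0.199%), 2 of 51 scaRNA genes (3.92%) and 2 of 1383 snRNA genes (0.145%). The share over all non-coding genes was 0.54%, below that of scaRNA genes and above those of snoRNA and snRNA genes. Of 2202 miRNA genes none held a midpoint of a member, although 42 were touched by a replicate 1 peak and 50 by a replicate 2 peak.

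Host transcripts of brain microRNAs were present in a small number. C130071C03Rik, host of Mir9-2, whose product miR-9 is abundant in neural progenitors, had 2 members, at 2.38 and 2.16 in replicate 1 and 2.28 and 2.17 in replicate 2. The replicate 1 peak of the member at 2.16, of 740 bp, contains the whole hairpin of 72 bases whose mature forms are printed above. The paired replicate 2 peak holds 31 of these bases, with all of miR-9-5p and none of miR-9-3p. Mir124-2hg, host of the neuronal miR-124, had 1 member at 2.93 and 2.42. The replicates were within 2-fold of each other in all 3. Of the 17 annotated genes on the list of microRNA hosts, 2 had a member and 12 had no peak in either replicate. Most of these hosts are typed as lncRNA. Over all lncRNA genes 1.29% had a member and 92.5% had no peak, and over all non-coding genes 0.54% and 96.7%.

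Of 23 annotated genes on a list of nuclear and brain lncRNAs, 4 had a member. Beside Tug1 these were Pantr1, a lncRNA beside the neural gene Pou3f3 (3.44 and 8.74), Rmst, which is linked to neuronal differentiation (2.09 and 2.48), and 2900097C17Rik (2.39 and 2.84). RefSeq names the last one Norad, a cytoplasmic lncRNA that binds Pumilio proteins. It had 1 replicate 1 peak and 6 replicate 2 peaks. No peak of either replicate lay in exons of 14 of the 23, among them Malat1, Neat1, Miat and Meg3, which are abundant in nuclei or in neurons. Snhg11, among the 14, is typed as protein-coding and could not hold a member. Over all lncRNA genes of the annotation, 1.29% had a member and 92.5% had no peak in either replicate. 1700020I14Rik had 9 peaks in replicate 2, over 48.4% of its exonic bases, and none in replicate 1. Of 13 imprinted non-coding RNAs, Peg13 and Snhg14 had members, and 8 had no peak, including Rian, Mirg and Kcnq1ot1. None of the 4 RNAs of X inactivation on the list (Xist, Tsix, Jpx and Ftx) had a peak, in male brain. Of 17 listed snoRNA host genes typed as non-coding, Snhg14 had members and 16 had no peak, Gas5 and Snhg1 among them, beside the 92.5% without a peak over all lncRNA genes.

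**Figure D4:**
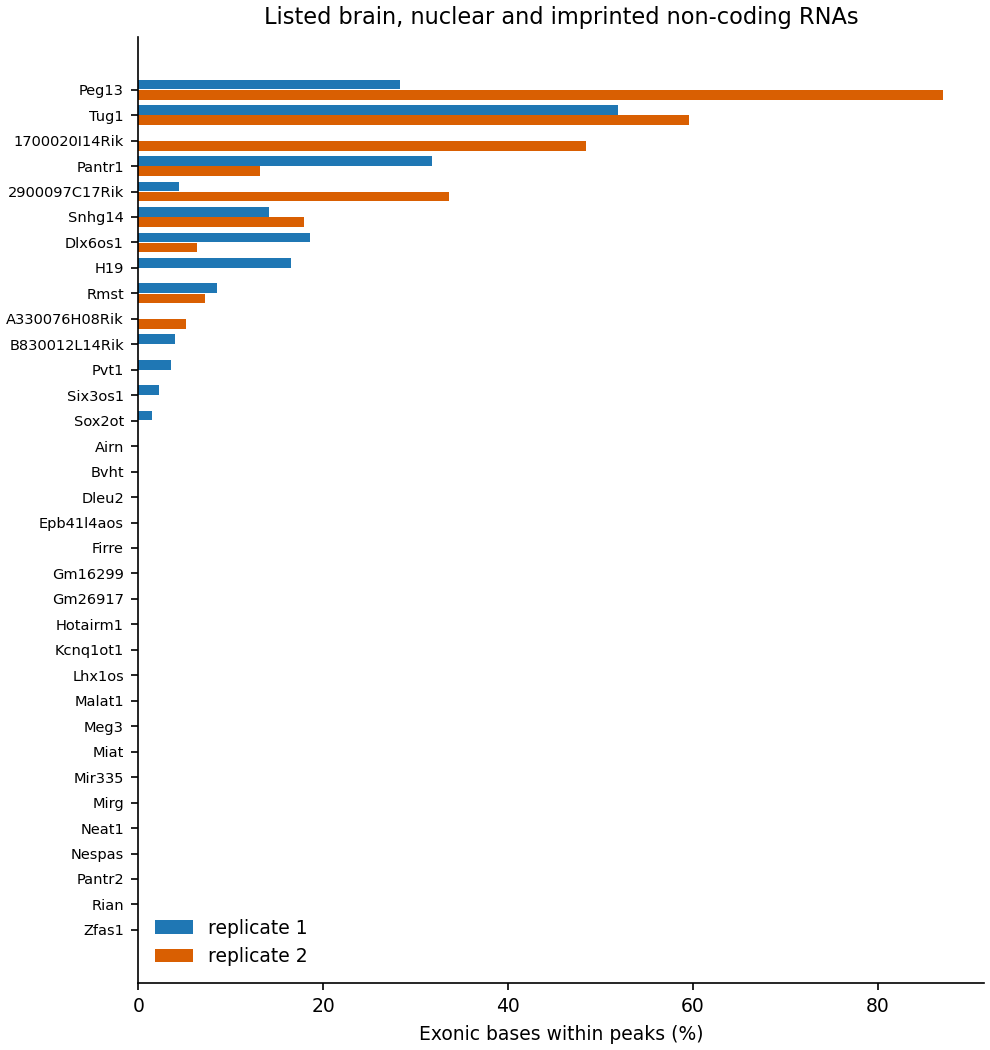
Share of exonic bases (x, in %) within peaks of replicate 1 (blue) and replicate 2 (orange) for the listed nuclear, brain and imprinted non-coding RNA genes. Peg13 (28.3% and 87.1%) and Tug1 (51.9% and 59.6%) lead, 1700020I14Rik has peaks in replicate 2 alone, and the genes without bars, such as Malat1 and Meg3, have no peak.

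Among 15 structural small RNAs, Rmrp, the RNA of RNase MRP, had a member at 1.86 and 1.42, higher in replicate 1. In replicate 2 alone, the signal recognition particle RNAs Rn7s1 and Rn7s2 had peaks of 5.60 and 4.69, and Scarna2 of 1.43. No peak of either replicate lay in 10 of the 15. Over all non-coding genes, 96.7% had no peak and 0.54% had a member. The share without a peak was 97.0% for genes of type misc_RNA, 99.8% for snRNA, 88.2% for scaRNA and 90.9% for ribozyme genes. Rpph1, the RNA of RNase P, had a peak in each replicate (1.68 and 1.59) but is not a member, because the midpoint of its replicate 1 peak lies in a 5′ UTR. None of the 4 genes on a list of rRNA loci (Gm26917, Gm42418, mt-Rnr1 and mt-Rnr2) had a peak, and of the 354 genes of type rRNA 1 was touched by a replicate 2 peak. The protocol removed rRNA, and only uniquely mapped reads were kept. The part of either step in the missing peaks was not tested. Neither list holds a peak on the mitochondrial chromosome.

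Not all members were non-coding by every source. The midpoint of 50 members (19.8%) lay within the span of a protein-coding gene, 25 on the same strand as that gene and 25 on the other. Another exonic peak of that coding gene was shared in 15 of the 25 on the same strand and in 14 of the 25 on the other. In 25 members some bases reached a coding sequence or UTR. RefSeq put 11 midpoints in coding sequence and 28 in another part of an mRNA exon, together 15.4% of the members, while 135 were in non-coding exons and 79 in no RefSeq exon. Zswim6, Zfp469 and Trerf1 carry the names of coding genes.

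Near copies of coding transcripts, by sequence alone, were a further part. In 19 members (7.51%) the exonic bases matched a transcript of another coding gene at 90% identity or more over at least 50% of their length, and 13 of these were in pseudogenes. The 3 members counted for 5830417I10Rik matched Gon4l at 97.6% to 98.5%, and Gon4l had a shared peak of its own. The members of Nlrp5-ps matched the oocyte gene Nlrp5 at 97.1% to 99.4%. Gm4804 matched Gapdh at 94.2% (4.93 and 5.31) and Gm7278 matched Odc1 at 96.2% (3.58 and 5.31), and neither coding gene had a shared peak. The rule does not separate copies of genes from shared repeats. The Dubr member that matched Vmn1r229 at 93.7% is masked repeat over all its exonic bases. RefSeq places the midpoint of the AC164314.1 member in Gm1604a, the gene that it matched at 100%. In all, the matched gene had a shared peak for 4 of the 19.

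Along the transcript, members sat in every part. The midpoint lay in the first 25% of the merged exons in 83 members, between 25% and 50% in 66, between 50% and 75% in 66, and beyond 75% in 38. Members were 580 bp wide at the median and 155 were exonic throughout. The replicate 2 peak with the most overlap covered a median of 69.5% of a member, against 89.3% in coding sequence. There were 40 members that met more than 1 replicate 2 peak, and 48 members lay wholly within a replicate 2 peak. Masked repeats made up a median of 8.12% of a member, against 4.34% in coding sequence and 9.40% in introns.

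The motif GGAC was looked for in the exonic bases on the strand of the gene alone. It was present in 215 of 253 members (85.0%), and the longer GGACT, which contains it, in 128 (50.6%). In coding sequence peaks the shares were 80.5% and 43.4% and in 3′ UTR peaks 76.2% and 45.6%. Members were longer, and within classes of equal exonic length the order changed. From 201 to 400 bases GGAC was in 72.8% of 81 members, 75.3% of coding sequence peaks and 59.4% of 3′ UTR peaks. From 401 to 800 bases it was in 92.6%, 91.1% and 83.0%. In windows of 552 bases, the median exonic length of a member, GGAC was in 81.2% of windows over all non-coding genes and in 82.3% over the genes with a member.

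**Figure D5:**
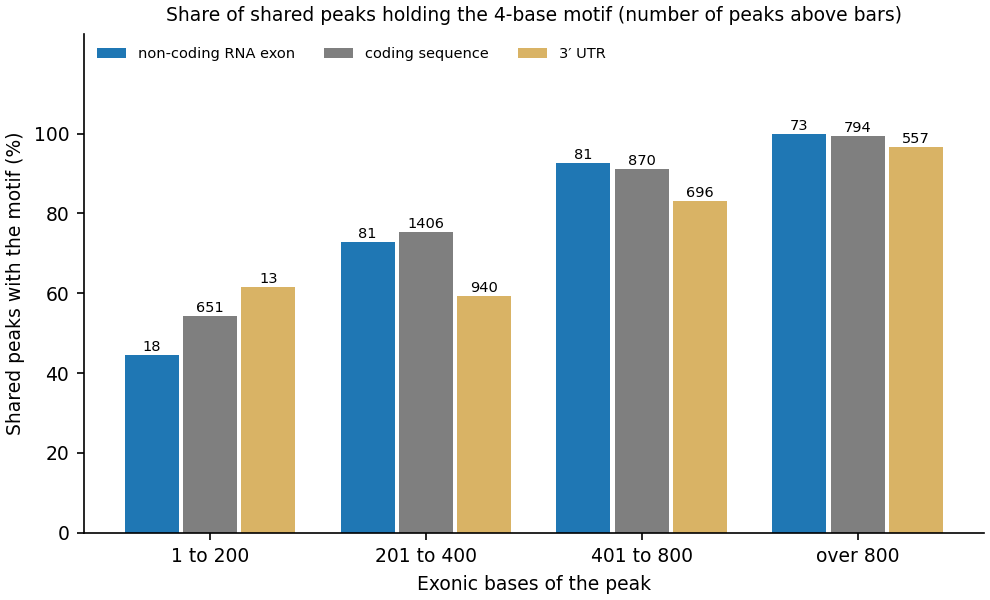
Share of shared peaks with GGAC (y, in %) by the number of exonic bases in the peak (x), for members, coding sequence peaks and 3′ UTR peaks, with the number of peaks above each bar. The members go from 44.4% at up to 200 bases to 100% above 800 bases, close to coding sequence peaks from 201 bases up and above 3′ UTR peaks from 201 bases up.

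The density of GGAC was 4.38 per kb in the exonic bases of members and 3.10 per kb in the exons of the same genes outside all peaks. GC content moved with it, at 51.2% and 43.8%. Set against the product of the base frequencies of each sequence set, the density was 1.08 times that value in members and 1.04 times outside peaks. Coding sequence peaks had 5.13 per kb at a GC content of 54.2% and 3′ UTR peaks 3.60 per kb at 47.6%, or 1.08 and 1.09 times the product. Pseudogene members had the highest density of the classes with at least 20 members, at 5.31 per kb, followed by lncRNA (4.32) and TEC members (4.03). Among the small RNA members 4 of 7 held GGAC. The part of GC content in these densities was not tested beyond this ratio. A match is a description of the letters and does not show that the adenosine is methylated or bound.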

How the data were processed

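Prrc2a RIP-seq was measured in 2 samples of 1 condition. After trimming, the authors mapped the reads on mm10, kept uniquely mapped reads and called peaks in each replicate separately with MACS2 under a false discovery rate threshold. The submitters' processing notes name TopHat2 2.0.9 and MACS2 2.0.10, and the published methods name other versions. The deposited values are peak positions and a fold enrichment, a linear ratio over a control library that is not given in the sources used here. Depth is unknown, so neither intervals nor detection limits could be given.

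Peaks were paired between replicates by an overlap of at least 1 bp, and a member's replicate 2 value is that of the peak with the most overlap. Gene types, exons and spans came from GENCODE M21, and sequence, repeat masking and a second annotation from RefSeq GRCm38.p6. No peak ran past the end of its chromosome in that assembly. A member in exons of several genes was described under the gene with the most exonic bases. Copies were found with BLAST+ 2.17.0. Calculations used Python 3.11.15, numpy 2.4.6, pandas 2.3.3 and scipy 1.17.1, with figures by matplotlib 3.10.9. Overlap and motif functions were tested on simulated data.

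The members and gene lists were chosen with earlier results of these data known. Genes are named when they hold 3 or more members, are on a list and hold a member, or hold 1 of the 10 members with the largest mean fold enrichment. Others were named after their values were seen. No test was run. Alternatives covered the overlap, the fold enrichment, the replicate counted, each replicate alone, the exon rule, the annotation and the motif.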

Additional observations from a re-analysis of the deposited data

How the results depend on the processing

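The 7 main results were recomputed under 61 combinations of result and alternative. Of these, 30 stayed within the limit and 31 moved. The limit was 1.5 times for a count and the SD between the replicates alone for a share or median. Counts, shares and medians have no direction, so a reversal was not possible. Using each replicate alone gave 461 to 654 peaks, 311 to 407 genes, 2.47% to 3.61% of all peaks and 71.6% to 73.2% in lncRNA genes. It also gave 20.6% to 24.5% within a coding gene span and 70.9% to 75.5% with GGAC. The median fold enrichment was 3.37 with replicate 1 alone and 3.51 with replicate 2 alone, each in that replicate's own values. Both were set against the members' replicate 1 median of 3.07. An overlap of 50% of both peaks left 139 peaks in 108 genes, 74.8% in lncRNA genes, 81.3% with GGAC and a median of 2.88. Asking for values of 4 or more in each replicate left 57 peaks in 55 genes, 7.89% of such shared peaks, 66.7% in lncRNA genes and a median of 5.76. Counting replicate 2 peaks gave 77.2% with GGAC and a median of 3.55 in replicate 2 values, where the members' median was 3.49. Assigning the exon with the most bases gave 4.03% of shared peaks, 28.8% within a coding gene span, 79.5% with GGAC and a median of 2.97. Basic transcripts gave 75.4% in lncRNA genes. GGAC was in 41.1% of 100-base windows around the midpoint, and GGACT in 50.6% of members.

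Alternatives chosen after seeing the data left out members in coding gene spans (203 left), in RefSeq coding sequence or mRNA exons (214 left, with a median of 3.20) or near copies (234 left). No paired analysis was possible because there is 1 group. The number of replicates and the unknown depth limit all counts.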
